A study of Mus musculus with 6 samples.

Results

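The imprinted growth-control genes examined here are *Igf2*, *Dlk1*, *Mest*, *Peg10*, *Peg3*, *Plagl1*, *Ndn*, *Grb10*, *Cdkn1c* and *Phlda2*. They were chosen by symbol and make up 10 of the 18112 genes whose RNA was quantified in primary aortic vascular smooth muscle cells (VSMCs) of mice. There were 3 samples of each genotype, Smyd2 fl/fl and Smyd2 SMC-/-, on a C57BL/6 background, with the cells isolated from the aortas of young adult animals. In both groups both *Smyd2* alleles carry loxP sites around exon 2. Smyd2 SMC-/- mice also carry Tagln-Cre (SM22α-Cre), which deletes that exon in smooth muscle cells. The paper gives as a limitation of this Cre that *Tagln* is not confined to smooth muscle, with myeloid and heart muscle cells among its examples. The fl/fl littermates without Cre served as controls; below, control and knockout libraries are those of Smyd2 fl/fl and Smyd2 SMC-/- cells. According to the labels, cells at passage 6 in DMEM with 10% FBS were collected and libraries were made with Promega and TruSeq kits, whereas the methods describe an earlier passage, overnight starvation and TRIzol. The poly-A libraries were sequenced on a BGISEQ-500 instrument and held approximately 17400000 to 20100000 fragments each, as estimated from the steps between low values. Nothing in the labels says that the replicates are separate animals, so p-values measure the spread between these samples, which may be technical.

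Imprinted genes are expressed mainly from the allele inherited from one parent, because DNA methylation marks set in the egg or sperm are kept on that allele after fertilization. Many of them act on fetal growth, with paternally expressed genes such as *Igf2* often promoting it and maternally expressed genes such as *Grb10*, *Cdkn1c* and *Phlda2* restraining it, and several fall in expression after birth. In arteries, IGF signalling is known to act on the growth, survival and migration of smooth muscle cells. The values here are the summed RNA of both alleles, and neither allele nor methylation was measured.

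The targeted gene was examined first. *Smyd2* had 7.87, 3.10 and 3.0 FPKM (fragments scaled to transcript length and library size) in control replicates 1, 2 and 3, and 1.67, 0.40 and 0.80 FPKM in knockout replicates 1, 2 and 3. It was lower in each knockout library than in any control library, with replicate 1 the highest of each genotype. Here and below, changes are on the scale of log2(FPKM + 1), which understates those of low genes, and *Smyd2* had a log2 fold change of −1.48 (SE 0.389, Benjamini-Hochberg adjusted p = 0.105 in limma). With a block for the replicate number, limma gave an adjusted p of 0.0189, and the Benjamini-Hochberg adjusted p ran from 0.00126 to 0.305 over 13 alternative settings. An exact permutation test of 3 against 3 samples cannot give a two-sided p below 0.1, and *Smyd2* reached that value. FPKM covers all exons of a gene, and the values do not show exon 2 alone. Replicate 1 of both genotypes stood apart from replicates 2 and 3 across the transcriptome, and values from replicates 2 and 3 alone are given where the tested members are described.

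Of the 10 imprinted growth-control genes, 6 had a mean of at least 0.5 FPKM over the 6 libraries and were tested, and each of these also had such a mean within both genotypes. *Igf2* was lower in Smyd2 SMC-/- and *Dlk1* and *Ndn* were higher at an adjusted p under 0.05 (limma, Benjamini-Hochberg over 12565 genes). That is 1 of 6 tested members lower, beside 1.21% of all genes tested, and 2 of 6 higher, beside 1.23%. With the replicate block, *Peg3* was added to the lower members and *Grb10* to the higher members, giving 2 lower, beside 5.72% of all genes, and 3 higher, beside 4.72%. *Peg10* was not called in either fit. The genotypes did not overlap for 1 tested member that was lower (15% of all genes tested) and 3 that were higher (13.1%). The median log2 fold change of the 6 tested members was 0.10, beside −0.018 for all genes tested, and their median absolute log2 fold change was 2.21, beside 0.24. The members were chosen with such results in view, so these counts describe the list and support nothing further. In bulk RNA, fewer cells of a type and less RNA per cell cannot be told apart.

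**Figure D1:**
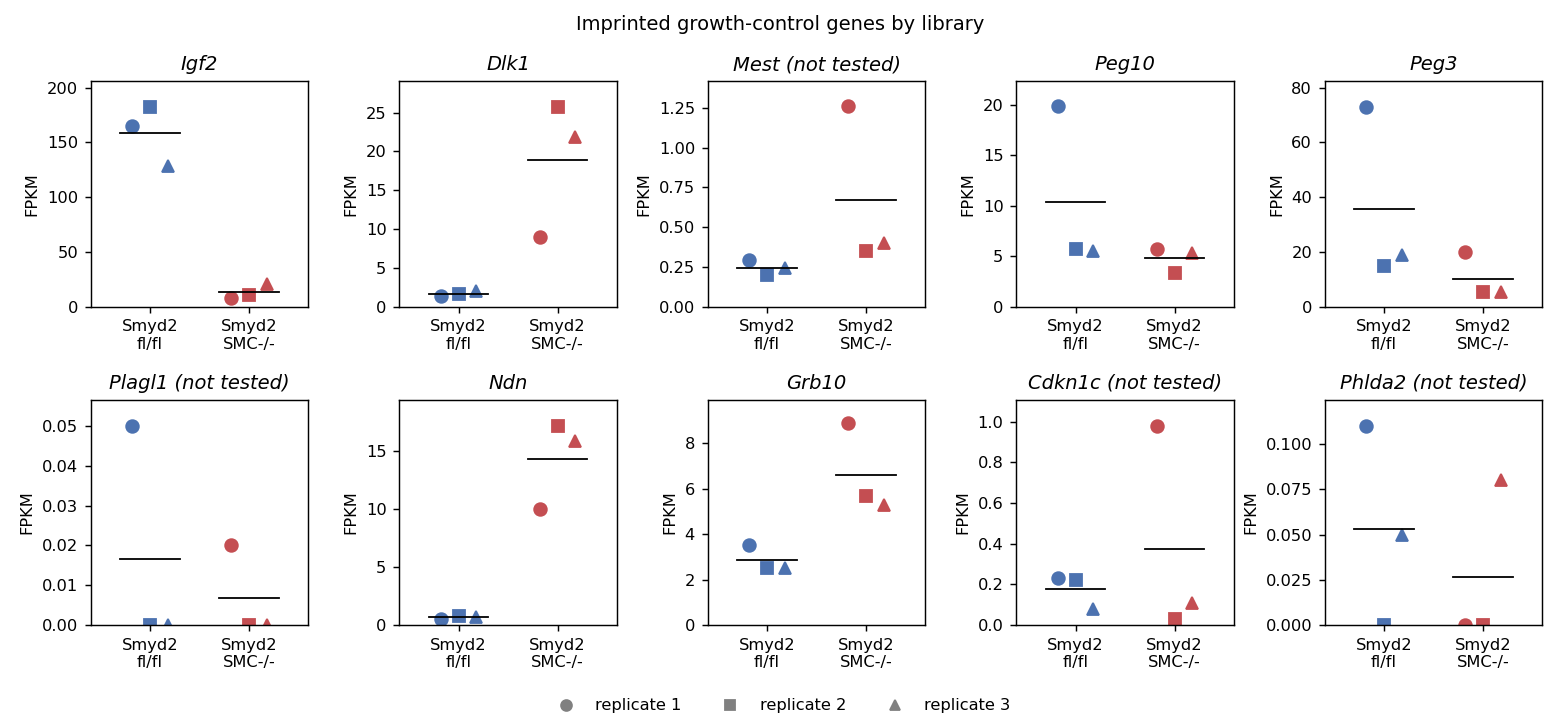
FPKM of the 10 genes in each library, on linear axes that start at 0 and differ between panels. Blue symbols are Smyd2 fl/fl and red symbols Smyd2 SMC-/-, shapes mark the replicate number and black lines the group means of 3 libraries. *Igf2* lies between 128.47 and 181.94 FPKM in the controls and between 7.64 and 20.61 FPKM in the knockouts, while *Dlk1*, *Ndn* and *Grb10* lie higher in all Smyd2 SMC-/- libraries.

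*Igf2* encodes insulin-like growth factor 2, a secreted ligand of the IGF1 and insulin receptors that promotes fetal growth, and is expressed from the paternal allele in most tissues. It (NCBI Gene 16002, chr7:142650766-142666816 on the minus strand of GRCm38) was the most abundant member. Its RNA was at 165.00, 181.94 and 128.47 FPKM in control replicates 1, 2 and 3 and at 7.64, 10.29 and 20.61 FPKM in knockout replicates 1, 2 and 3. All control libraries were high and all knockout libraries low, with a wide gap between the genotypes. In Smyd2 fl/fl libraries *Igf2* ranked between 348 and 489 of the 18112 genes by FPKM, and in Smyd2 SMC-/- libraries between 3732 and 7681. The group means were 158 ± 27.3 FPKM (SD, n = 3) and 12.8 ± 6.85 FPKM (SD, n = 3), a 12.3-fold lower level in Smyd2 SMC-/-. These values rest on approximately 8322 to 11964 fragments in each control library and 435 to 1301 in each knockout library. The log2 fold change was −3.62 (SE 0.342, 95% interval −4.44 to −2.80, Benjamini-Hochberg adjusted p = 0.00727 in limma), and 15 of the 12565 tested genes had a larger absolute change. Replicates 2 and 3 alone gave −3.30 (Benjamini-Hochberg adjusted p = 0.00882 in limma). Without Smyd2 fl/fl replicate 2 the log2 fold change was −3.52, with an adjusted p of 0.0541 in limma (Benjamini-Hochberg), and over 13 alternatives the adjusted p ran from 0.00316 to 0.0541. *Igf2* is overlapped on the other strand by *Igf2os*, and as the sources do not say that the counting used strand, reads of such pairs cannot be told apart.

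Promoter windows, from 250 bases before to 50 bases after an annotated start (RefSeq, GRCm38.p6), were found for 8 of the 10 members, in 14 windows; *Cdkn1c* and *Peg10* had none in the table. The CArG box (CC, then 6 bases of A or T, then GG), the sequence bound by serum response factor, the partner of the smooth muscle coactivator myocardin, was searched on both strands because myocardin belongs to the question of the study. It was found in 1 of the 14 windows, belonging to 1 of 4 annotated *Igf2* starts, and in 1.629% of all 32851 windows. The window, chr7:142661222-142661521 on the minus strand, is shown because *Igf2* had the largest absolute log2 fold change among the members. The capitals mark the CArG box, whose first base lies at position −155 from the start.
Igf2: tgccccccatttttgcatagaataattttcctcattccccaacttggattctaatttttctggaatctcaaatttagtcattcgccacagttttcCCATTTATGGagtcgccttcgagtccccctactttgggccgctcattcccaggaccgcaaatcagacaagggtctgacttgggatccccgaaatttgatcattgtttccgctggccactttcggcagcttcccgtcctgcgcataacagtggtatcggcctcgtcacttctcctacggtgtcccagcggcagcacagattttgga
A match in such a window is a description of the sequence and not evidence that a factor binds there. GCCATNTT, a YY1-type motif, was found on neither strand of the 14 windows, while 6.052% of all windows hold it.

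*Dlk1* encodes a transmembrane protein with EGF-like repeats that is shed from the cell, restrains adipocyte differentiation and is expressed from the paternal allele. It (NCBI Gene 13386, chr12:109452823-109463336 on the plus strand of GRCm38) was at 1.41, 1.58 and 1.94 FPKM in control replicates 1, 2 and 3 and at 8.98, 25.69 and 21.78 FPKM in knockout replicates 1, 2 and 3. The knockout libraries were all above the control libraries, and replicate 1 was the lowest of the knockouts. The means were 1.64 ± 0.271 FPKM and 18.8 ± 8.74 FPKM (SD, n = 3 each), an 11.5-fold higher level in Smyd2 SMC-/-. For *Dlk1* the log2 fold change was 2.79 (SE 0.370, 95% interval 1.91 to 3.68, Benjamini-Hochberg adjusted p = 0.0201 in limma). In replicates 2 and 3 alone it was 3.16 (Benjamini-Hochberg adjusted p = 1.08e-05 in limma). The call was lost when 1 of 5 libraries was left out: the adjusted p in limma (Benjamini-Hochberg) was 0.0506, 0.102 and 0.0976 without Smyd2 fl/fl replicate 1, 2 and 3, and 0.0832 and 0.108 without Smyd2 SMC-/- replicate 2 and 3, with log2 fold changes between 2.52 and 2.87. Over 13 alternatives it ran from 1.08e-05 to 0.108.

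*Ndn* encodes necdin, a MAGE-family protein that restrains proliferation, promotes differentiation and is expressed from the paternal allele. It (NCBI Gene 17984, chr7:62346569-62350262 on the plus strand of GRCm38) had 0.55, 0.76 and 0.71 FPKM in control replicates 1, 2 and 3 and 10.06, 17.20 and 15.87 FPKM in knockout replicates 1, 2 and 3. The control libraries were all low and the knockout libraries all high, without overlap. Approximately 37 to 55 fragments stand behind each control value and 633 to 1212 behind each knockout value, if the GENCODE length of 3694 bases applies. The RefSeq start lies inside that gene, so these fragment numbers may be too high. The means were 0.673 ± 0.110 FPKM and 14.4 ± 3.80 FPKM (SD, n = 3 each), a 21.4-fold higher level in Smyd2 SMC-/-. For *Ndn* the log2 fold change was 3.17 (SE 0.224, 95% interval 2.63 to 3.70, Benjamini-Hochberg adjusted p = 0.00246 in limma). It was 3.34 in replicates 2 and 3 alone and was called in every alternative tried, with log2 fold changes of 3.03 to 4.2 and Benjamini-Hochberg adjusted p from 7.35e-06 to 0.0275 in limma. *Ndn* overlaps the lincRNA gene *Gm32061* on the other strand, with the same limit as for *Igf2*.

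As *Dlk1* and *Ndn* were the members called higher, their RefSeq promoter windows are shown with each CpG, the dinucleotide at which DNA methylation is set, in capitals. The *Dlk1* window is chr12:109452573-109452872 and the *Ndn* window chr7:62348027-62348326, both on the plus strand of GRCm38.p6.
Dlk1: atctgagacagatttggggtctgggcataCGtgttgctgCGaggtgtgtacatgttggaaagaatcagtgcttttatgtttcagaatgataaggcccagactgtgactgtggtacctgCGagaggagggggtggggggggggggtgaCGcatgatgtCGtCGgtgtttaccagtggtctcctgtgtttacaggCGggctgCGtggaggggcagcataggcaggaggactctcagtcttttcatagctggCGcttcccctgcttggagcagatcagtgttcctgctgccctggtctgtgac
Ndn: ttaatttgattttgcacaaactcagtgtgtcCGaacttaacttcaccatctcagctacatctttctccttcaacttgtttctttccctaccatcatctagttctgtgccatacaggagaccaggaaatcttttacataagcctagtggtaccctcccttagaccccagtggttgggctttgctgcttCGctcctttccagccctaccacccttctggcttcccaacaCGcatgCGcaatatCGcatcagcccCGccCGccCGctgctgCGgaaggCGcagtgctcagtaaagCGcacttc
The *Dlk1* window held 9 CpG and the *Ndn* window 11, beside a median of 7 over all windows, and 45.8% and 41.4% of all windows held as many or more. The RefSeq start of *Ndn* used here lies inside the gene as GENCODE annotates it.

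*Peg3* encodes a zinc finger transcription factor, expressed from the paternal allele, that acts on growth and cell survival. It (NCBI Gene 18616, chr7:6703892-6730431 on the minus strand of GRCm38) was at 72.94, 14.97 and 18.85 FPKM in control replicates 1, 2 and 3 and at 19.92, 5.19 and 5.15 FPKM in knockout replicates 1, 2 and 3. Replicate 1 was the highest library of each genotype, and the knockout replicate 1 lay above the control replicates 2 and 3, so the genotypes overlapped. Within each replicate number the knockout was lower, by differences in log2(FPKM + 1) of −1.82, −1.37 and −1.69 for replicates 1, 2 and 3. The log2 fold change was −1.63 (SE 0.715, 95% interval −3.34 to 0.09, Benjamini-Hochberg adjusted p = 0.269 in limma), and an exact permutation test gave a two-sided p of 0.3. With the replicate block the same log2 fold change had an SE of 0.127 and a Benjamini-Hochberg adjusted p of 0.00932 in limma. Replicates 2 and 3 alone gave −1.53 (adjusted p = 0.000256 in limma, Benjamini-Hochberg), and the adjusted p ran from 0.000256 to 0.578 over 13 alternatives. The log2 fold change was −0.94 without Smyd2 fl/fl replicate 1 and −2.21 without Smyd2 SMC-/- replicate 1 (adjusted p = 0.43 and 0.114 in limma). The motif GGGGCCCC, of the type bound by PLAGL1, the transcription factor encoded by another member, was searched on both strands of all windows and occurred in 1 of the 14 windows of the members and in 1.078% of all windows. The window that holds it is that of *Peg3*, chr7:6730370-6730669 on the minus strand (RefSeq, GRCm38.p6), with the motif in capitals and its first base at position −201 from the start.
Peg3: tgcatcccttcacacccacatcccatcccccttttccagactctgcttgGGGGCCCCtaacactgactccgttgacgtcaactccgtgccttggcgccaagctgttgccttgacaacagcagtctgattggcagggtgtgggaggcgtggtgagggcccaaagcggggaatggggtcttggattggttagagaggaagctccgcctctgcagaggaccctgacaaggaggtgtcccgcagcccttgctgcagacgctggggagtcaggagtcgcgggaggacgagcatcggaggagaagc
*Plagl1* itself, a paternally expressed zinc finger gene, was listed at 0.05 FPKM in Smyd2 fl/fl replicate 1, at 0.02 FPKM in knockout replicate 1 and at 0 in the other 4 libraries. Those values correspond to approximately 5 and 2 fragments, and no fold change is given.

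*Peg10* encodes a retrotransposon-derived gag-like protein needed for placental development and is expressed from the paternal allele. It (NCBI Gene 170676, chr6:4747306-4760517 on the plus strand of GRCm38) had 19.88, 5.67 and 5.52 FPKM in control replicates 1, 2 and 3 and 5.74, 3.35 and 5.29 FPKM in knockout replicates 1, 2 and 3. The control replicate 1 was high, and the other 5 libraries lay close together with the genotypes overlapping. For *Peg10* the log2 fold change was −0.77 (SE 0.474, 95% interval −1.90 to 0.37, Benjamini-Hochberg adjusted p = 0.430 in limma), so the difference did not exceed the spread between replicates. Replicates 2 and 3 alone gave −0.33, and over 13 alternatives the Benjamini-Hochberg adjusted p in limma ran from 0.115 to 0.679. *Mest*, a paternally expressed gene for a membrane protein of the hydrolase family, stayed under the mean needed for a test. It had 0.29, 0.20 and 0.24 FPKM in control replicates 1, 2 and 3 and 1.26, 0.35 and 0.40 FPKM in knockout replicates 1, 2 and 3, or approximately 10 to 13 and 17 to 54 fragments. The knockout libraries were above the control libraries, and replicate 1 stood above the other knockouts. Without the filter the log2 fold change of 0.38 had a Benjamini-Hochberg adjusted p of 0.429 in limma. The log2 difference was 0.17 in replicates 2 and 3 alone and 0.15 without Smyd2 SMC-/- replicate 1. *Mest* is overlapped on the other strand by *Copg2*, which had 9.93 to 16.12 FPKM.

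Among the maternally expressed members, *Grb10* encodes an adaptor protein that binds the insulin and IGF1 receptors and dampens their signalling. It (NCBI Gene 14783, chr11:11930508-12038683 on the minus strand of GRCm38) had 3.51, 2.50 and 2.51 FPKM in control replicates 1, 2 and 3 and 8.87, 5.66 and 5.30 FPKM in knockout replicates 1, 2 and 3. Each knockout library was above each control library, and replicate 1 was the highest of each genotype. The means were 2.84 ± 0.580 FPKM and 6.61 ± 1.97 FPKM (SD, n = 3 each), a ratio of 2.33. The log2 fold change was 0.97 (SE 0.227, 95% interval 0.42 to 1.51, Benjamini-Hochberg adjusted p = 0.0802 in limma). With the replicate block the adjusted p in limma was 0.0258, but with the block and no filter, an alternative chosen after the data were seen and not among the 13, it was 0.0563. In replicates 2 and 3 alone the log2 fold change was 0.89; over 13 alternatives the Benjamini-Hochberg adjusted p in limma ran from 0.00248 to 0.252.

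*Cdkn1c* encodes the cyclin-dependent kinase inhibitor p57, and *Phlda2* a pleckstrin homology domain protein that restrains placental growth. *Cdkn1c* had 0.23, 0.22 and 0.08 FPKM in control replicates 1, 2 and 3 and 0.98, 0.03 and 0.11 FPKM in knockout replicates 1, 2 and 3. The highest and the lowest library were both knockouts, and the genotypes overlapped; the values correspond to approximately 1 to 31 fragments. *Phlda2* was at 0.11, 0 and 0.05 FPKM in control replicates 1, 2 and 3 and at 0, 0 and 0.08 FPKM in knockout replicates 1, 2 and 3, at most approximately 1 fragment. Both lie close together on chromosome 7, with 42.1 kb between their annotated starts. For *Phlda2* a difference between the genotypes was not detectable at this depth, where 3 fragments correspond to 0.22 to 0.255 FPKM. For *Cdkn1c* the log2 difference of 0.16 did not exceed the spread between replicates (Benjamini-Hochberg adjusted p = 0.798 in limma without the filter). *Cdkn1c* is overlapped by the antisense gene *Gm44732*.

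**Figure D2:**
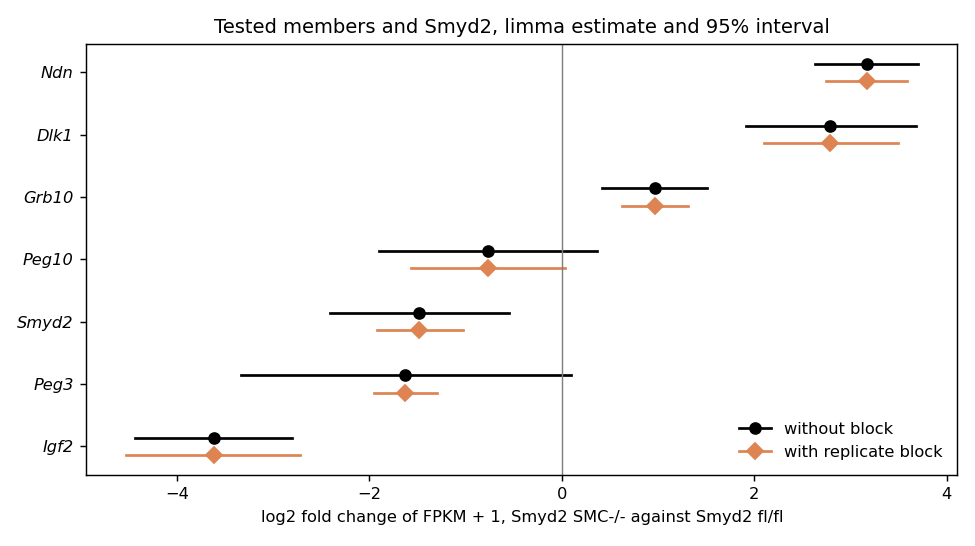
Log2 fold change of FPKM + 1 (horizontal axis) of *Smyd2* and the 6 tested members, Smyd2 SMC-/- against Smyd2 fl/fl. Black circles are the limma estimates without a block and orange diamonds those with the replicate block, and lines are 95% intervals. The interval of *Peg3* runs from −3.34 to 0.09 without the block and from −1.95 to −1.30 with it, and those of *Igf2*, *Dlk1*, *Ndn* and *Grb10* exclude 0 in both fits.

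The members lie in 9 imprinted domains, within which neighbouring genes can share an imprinting control region. Of the other genes listed in these domains, 23 had values and 12 were tested. None of the 12 was lower or higher at an adjusted p under 0.05 in limma (Benjamini-Hochberg) with or without the replicate block, beside 1.21% lower and 1.23% higher of all genes without the block and 5.72% and 4.72% with it. Only *Peg12* had an unadjusted p under 0.05 in limma without the block, beside 11.2% lower and 9.16% higher of all genes, and the log2 fold changes of the 12 ran from −0.39 to 0.77. In the domain of *Ndn*, *Peg12* had 0.10, 0.12 and 0.18 FPKM in control replicates 1, 2 and 3 and 1.36, 0.74 and 0.75 FPKM in knockout replicates 1, 2 and 3. *Peg12* was above the control range in all 3 knockouts, but it reached the mean for the test only through them, so its test depends on the filter and supports nothing here. *Snrpn*, a splicing protein gene transcribed from the imprinting centre of that domain, had 4.15 to 5.25 FPKM in the controls and 2.95 to 3.86 FPKM in the knockouts. Its log2 fold change was −0.38 (Benjamini-Hochberg adjusted p = 0.251 in limma), and *Ndn* relative to *Snrpn* (ratio of FPKM) was 0.113 to 0.171 in the controls and 3.41 to 4.63 in the knockouts. *Ube3a*, expressed from the maternal allele in neurons, had a log2 fold change of 0.11 (Benjamini-Hochberg adjusted p = 0.781 in limma), and *Atp10a* one of −0.39. *Mkrn3* and *Snurf* did not exceed 0.49 FPKM in any library.

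In the domain of *Dlk1*, *Begain* was listed at 0 in the 3 Smyd2 fl/fl libraries and at 0.88, 0.94 and 0.67 FPKM in knockout replicates 1, 2 and 3. It was thus seen only in the knockout libraries, but its mean was under the filter, and no fold change is given against a group at 0. Without the filter it was called higher (Benjamini-Hochberg adjusted p = 0.0147 in limma, and 0.0398 with the replicate block, an alternative chosen after the data were seen). *Begain* entered those fits only through the knockouts, so these calls support nothing here. Without the filter and the block, 139 of all genes were called higher. *Rtl1* and *Dio3*, from the same domain, did not exceed 0.64 and 0.45 FPKM, and in both the replicate 1 libraries lay at or near 0. *Peg10* shares its promoter region with *Sgce*, with 99 bases between the annotated starts, and *Sgce* had 35.92, 54.27 and 50.36 FPKM in the controls and 34.58, 51.48 and 59.62 FPKM in knockout replicates 1, 2 and 3. *Sgce* was thus lowest in replicate 1 of each genotype, where *Peg10* was highest, and its log2 fold change was 0.04 (Benjamini-Hochberg adjusted p = 0.957 in limma). *Usp29*, whose start lies 147 bases from that of *Peg3*, did not exceed 0.21 FPKM, and its neighbour *Zim1* did not exceed 0.09 FPKM. *Cobl*, next to *Grb10*, had 1.05 to 4.08 FPKM in the controls and 1.49 to 9.18 FPKM in the knockouts, and was higher in the knockout of each replicate number, by 0.28, 1.38 and 0.61 in log2(FPKM + 1). Its log2 fold change was 0.76 (Benjamini-Hochberg adjusted p = 0.540 in limma and 0.108 with the replicate block) and 1.0 in replicates 2 and 3 alone (adjusted p = 0.00713). *Ddc* did not exceed 0.12 FPKM. In the domain of *Cdkn1c* and *Phlda2*, 5 genes were tested, *Cd81*, *Nap1l4*, *Osbpl5*, *Tssc4* and *Slc22a18*, with log2 fold changes from −0.24 to 0.16. *H19* and *Ins2* beside *Igf2*, *Meg3*, *Rian* and *Mirg* beside *Dlk1*, *Kcnq1* and *Kcnq1ot1* beside *Cdkn1c*, and *Magel2* beside *Ndn* were not analysed here.

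**Figure D3:**
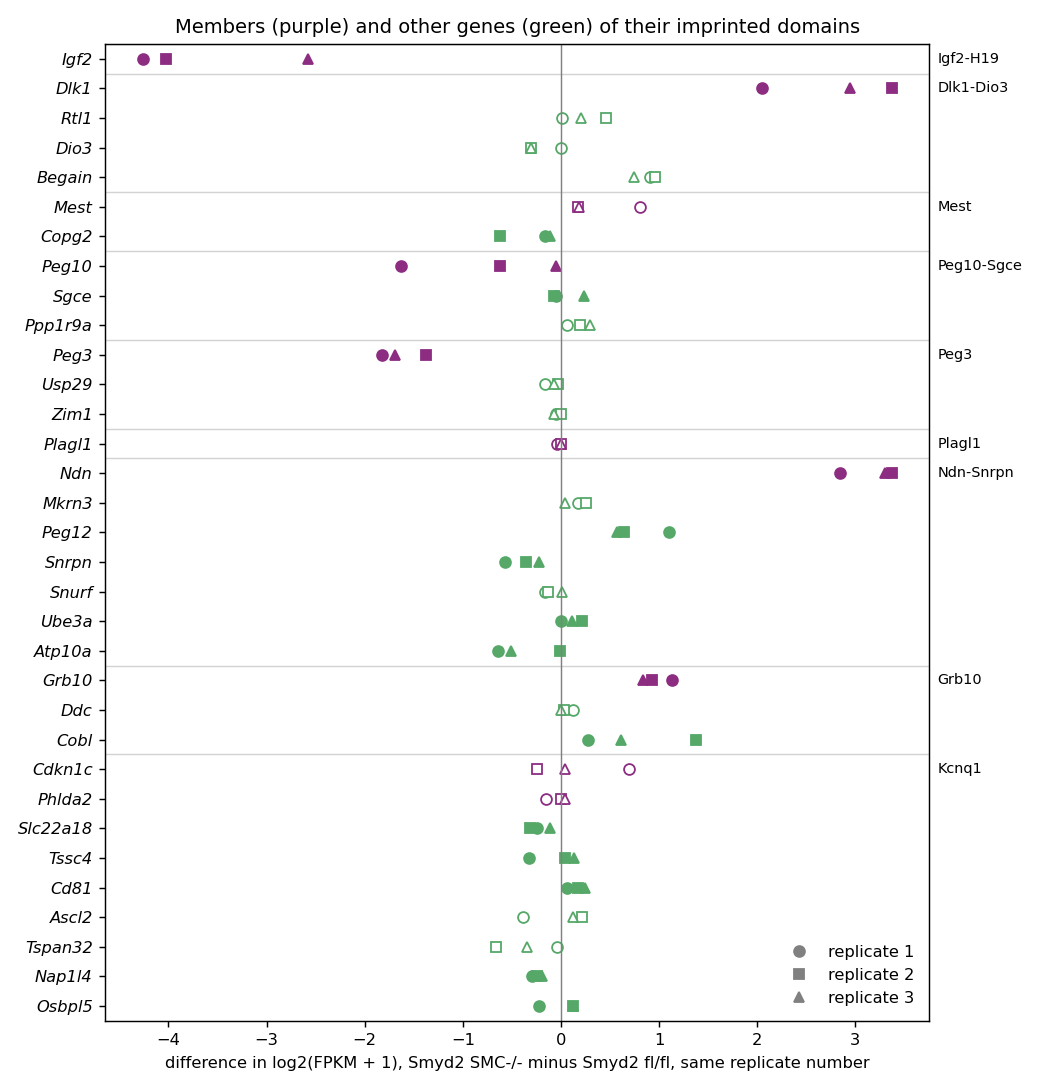
Difference in log2(FPKM + 1) between libraries of the same replicate number, Smyd2 SMC-/- minus Smyd2 fl/fl (horizontal axis), for the members (purple) and the other genes of their imprinted domains (green). Shapes mark the replicate number, open symbols are genes under the mean FPKM for the test and domain names are on the right. *Igf2*, *Dlk1* and *Ndn* lie more than 2 from 0 in every pair, and no green symbol does.

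Across the list of other imprinted genes, which includes these neighbours, 42 of 62 symbols had values and 26 were tested. None was called at an adjusted p under 0.05 in limma (Benjamini-Hochberg) without a block, while 3 lower and 3 higher of 26 had an unadjusted p under 0.05, beside 11.2% lower and 9.16% higher of all 12565 genes tested. The 3 higher include *Peg12*, which passed the filter only through the knockouts, so its test supports nothing. With the replicate block 2 were lower, *Nnat* and *Mcts2*, beside 5.72% lower and 4.72% higher of all genes, and neither was called with the block and no filter (adjusted p = 0.0699 and 0.0859). Their median log2 fold change was −0.02, beside −0.018 for all genes tested. *Nnat*, a paternally expressed gene for a small membrane protein of the endoplasmic reticulum, had 37.40, 8.63 and 7.10 FPKM in control replicates 1, 2 and 3 and 1.32, 0.89 and 1.11 FPKM in knockout replicates 1, 2 and 3. The control libraries were all higher, with replicate 1 far above the other controls. Its log2 fold change was −2.78 (Benjamini-Hochberg adjusted p = 0.0614 in limma and 0.0317 with the replicate block). *Mcts2*, which lies within an intron of *H13*, had a log2 fold change of −0.63 (Benjamini-Hochberg adjusted p = 0.313 in limma and 0.0456 with the replicate block). *Igf2r*, the maternally expressed receptor that carries IGF2 to lysosomes for breakdown, had 36.20, 36.92 and 40.10 FPKM in the controls and 31.02, 24.79 and 26.69 FPKM in knockout replicates 1, 2 and 3. It was lower in each knockout than in any control, by a log2 fold change of −0.45 (Benjamini-Hochberg adjusted p = 0.127 in limma). In replicates 2 and 3 alone *Igf2r* was called lower (−0.56, adjusted p = 0.0064 in limma), beside 17.2% of all genes. *Gnas*, the most abundant gene of the list, had a log2 fold change of −0.10.

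The IGF axis, through which *Igf2* and *Grb10* act, was described by 18 genes for the ligand IGF1, receptors, binding proteins, receptor substrates and RNA-binding proteins, of which 16 were tested. In limma with Benjamini-Hochberg adjustment 1 was higher, *Igfbp5*, and none was lower, while 3 lower and 5 higher of 16 had an unadjusted p under 0.05, against the same 11.2% and 9.16% of all genes. These 3 lower include *Igf2bp1*, which passed the filter only through the controls, so its test supports nothing. With the replicate block 3 were lower (*Igfbp4*, *Igf2bp3* and *Igf2bp1*, of which *Igf2bp1* passed the filter only through the controls, where it is high, so that 2 calls remain without it) and 4 higher (*Igfbp5*, *Igf1*, *Irs1* and *Irs2*), beside 5.72% lower and 4.72% higher of all genes in that fit. With the block and no filter, an alternative chosen after the data were seen, only *Igfbp5* of these was called (Benjamini-Hochberg adjusted p = 0.0349 in limma). *Igf1*, the other IGF ligand, had 3.16, 8.38 and 10.09 FPKM in control replicates 1, 2 and 3 and 13.48, 80.35 and 31.91 FPKM in knockout replicates 1, 2 and 3. The knockouts were all above the controls, and replicate 1 was the lowest of each genotype, with a log2 fold change of 2.16 (Benjamini-Hochberg adjusted p = 0.143 in limma and 0.0303 with the replicate block). It was not called in replicates 2 and 3 alone (2.34, Benjamini-Hochberg adjusted p = 0.0638 in limma) or with the block and no filter (0.0674). The ratio of *Igf2* to *Igf1*, in FPKM, was 52.2, 21.7 and 12.7 in the Smyd2 fl/fl libraries and 0.567, 0.128 and 0.646 in the Smyd2 SMC-/- libraries, in order of replicate number. *Igf2* was thus the more abundant ligand RNA in every control and *Igf1* in every knockout (exact permutation p = 0.1 on the log2 ratio, the smallest possible). Their summed level was 168, 190 and 139 FPKM in the controls and 21.1, 90.6 and 52.5 FPKM in the knockouts, without overlap.

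Among the IGF-binding proteins, which hold IGFs outside the cell, *Igfbp5* had 3.36, 2.95 and 2.74 FPKM in the controls and 126.05, 49.68 and 40.09 FPKM in knockout replicates 1, 2 and 3. Its log2 fold change was 4.0 (SE 0.407, Benjamini-Hochberg adjusted p = 0.00906 in limma), and *Igfbp4* had one of −2.56 (Benjamini-Hochberg adjusted p = 0.107 in limma and 0.0406 with the replicate block). *Igfbp3* had 0.70, 0.91 and 0.77 FPKM in control replicates 1, 2 and 3 and 1.24, 79.55 and 96.89 FPKM in knockout replicates 1, 2 and 3. Every knockout was above the controls, but replicate 1 only slightly, and the log2 fold change was 3.86 (Benjamini-Hochberg adjusted p = 0.193 in limma). In replicates 2 and 3 alone it was 5.59 (Benjamini-Hochberg adjusted p = 8.67e-07 in limma), beside 3.57 for *Igfbp5*. *Igfbp2* and *Igfbp6* overlapped between the genotypes through replicate 1, with log2 fold changes of 2.14 and 1.36 (Benjamini-Hochberg adjusted p = 0.289 and 0.475 in limma) and of 3.06 and 1.87 in replicates 2 and 3 alone (6.59e-05 and 0.000222). The most abundant, *Igfbp7*, had a log2 fold change of −0.19. The receptor substrates *Irs1* and *Irs2* lay above the controls in all knockouts, with log2 fold changes of 0.56 and 0.90 (Benjamini-Hochberg adjusted p = 0.0727 and 0.0542 in limma, and 0.0433 and 0.0261 with the replicate block). *Igf2bp1* and *Igf2bp3*, which encode proteins that bind *Igf2* RNA among others, lay below the controls in all knockouts, with log2 fold changes of −0.77 and −0.85 (Benjamini-Hochberg adjusted p = 0.160 and 0.0598 in limma, and 0.0416 and 0.0314 with the replicate block). The receptors *Igf1r* and *Insr* had log2 fold changes of −0.23 and 0.03, and their genotypes overlapped.

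**Figure D4:**
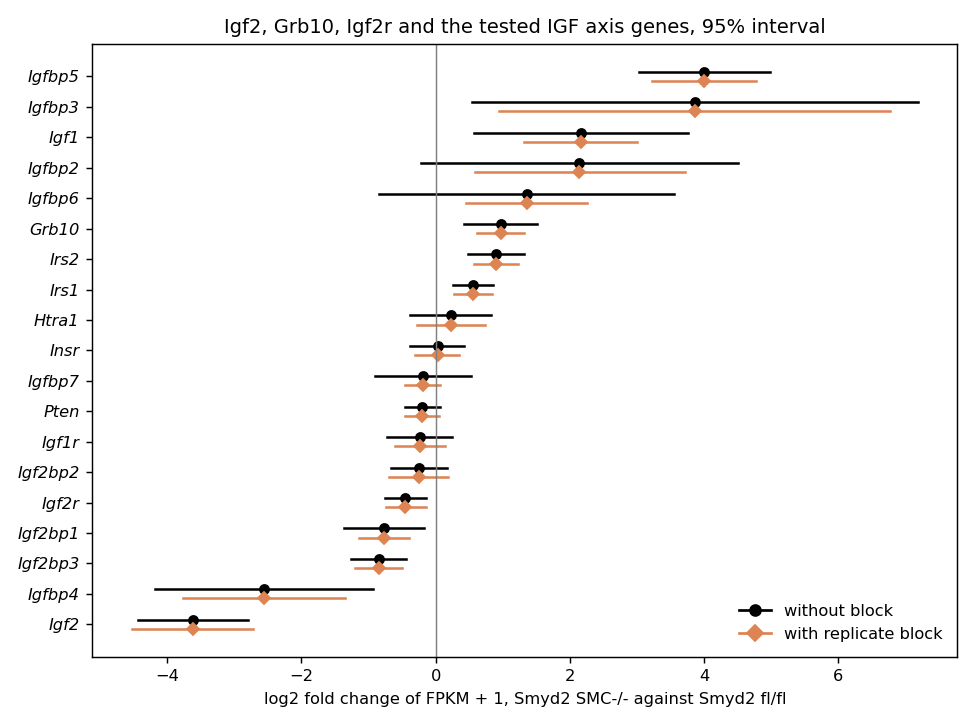
Log2 fold change of FPKM + 1 (horizontal axis), Smyd2 SMC-/- against Smyd2 fl/fl, of *Igf2*, *Grb10*, *Igf2r* and the 16 tested IGF axis genes, in limma without a block (black circles) and with the replicate block (orange diamonds), with 95% intervals. *Igf2* (−3.62) and *Igfbp5* (4.0) lie at the ends, and *Igf1r* and *Insr* lie near 0.

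Genes that set or keep imprints, such as the DNA methyltransferases and the zinc finger proteins that protect methylated imprints, were listed as well. Of 22 with values 20 were tested, and none was called in limma (Benjamini-Hochberg) with or without the replicate block, while 2 lower and 2 higher of 20 had an unadjusted p under 0.05 without it, again to be read against 11.2% and 9.16% of all genes. In replicates 2 and 3 alone *Trim28*, *Smchd1* and *Kdm1b* were called lower and *Dnmt3a* higher, with log2 fold changes of −0.41, −0.37, −0.35 and 0.45 (Benjamini-Hochberg adjusted p = 0.0212, 0.0356, 0.0491 and 0.0439 in limma), beside 17.2% lower and 11.9% higher of all genes. Over all 6 libraries, without the block, the log2 fold changes of the 20 tested genes ran from −0.88 to 0.42 with a median of −0.01. *Uhrf1*, which guides the maintenance methyltransferase to replicated DNA, had the lowest value, with 12.77 to 17.98 FPKM in the controls and 6.01 to 10.62 FPKM in the knockouts (Benjamini-Hochberg adjusted p = 0.0997 in limma). *Zfp57*, a zinc finger protein that protects methylated imprints, was present at 30.10 to 36.26 FPKM and 32.37 to 52.92 FPKM, and *Dnmt1* had a log2 fold change of −0.22.

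The labelled cell type was compared with marker genes. Of 7 smooth muscle genes 5 were tested and 1 was called, *Acta2*, the most abundant, with a log2 fold change of −1.55 (Benjamini-Hochberg adjusted p = 0.00803 in limma), beside 1.21% lower and 1.23% higher of all genes, while *Myh11*, a defining gene of contractile cells, and *Myocd* had means under 0.1 FPKM over the 6 libraries. In the controls their means were 0.110 and 0.170 FPKM, with *Myocd* at 0.48 FPKM in replicate 1, and in the knockouts 0.0467 and 0.0133 FPKM. The summed level of the 7 genes was 922, 821 and 814 FPKM in the controls and 263, 429 and 376 FPKM in knockout replicates 1, 2 and 3. Without *Acta2* the sums were 161, 139 and 131 FPKM and 62.3, 161 and 114 FPKM, and the genotypes overlapped. The other tested genes, *Tagln*, *Cnn1*, *Smtn* and *Lmod1*, had log2 fold changes of −0.92, −0.91, −0.05 and 0.24 and were not called, and in replicates 2 and 3 alone these were −0.08, −0.07, 0.05 and 0.83, of which *Lmod1* was called (Benjamini-Hochberg adjusted p = 0.00335 in limma), beside 11.9% higher of all genes. *Myh11* and *Myocd* were thus low, while the other 5 genes were expressed. Of 8 adventitial fibroblast genes 7 were tested; *Dpt* was lower with a log2 fold change of −5.28 (Benjamini-Hochberg adjusted p = 0.00417 in limma), beside 1.21% of all genes. With the replicate block *Cd34* and *Ly6a* were also lower (Benjamini-Hochberg adjusted p = 0.0269 and 0.0404 in limma), so 3 of 7, beside 5.72% of all genes. Neither *Cd34* nor *Ly6a* was called with the block and no filter (adjusted p = 0.0639 and 0.0832 in limma). *Lum* went the other way, with 0, 1.31 and 1.17 FPKM in control replicates 1, 2 and 3 and 0.26, 14.51 and 10.39 FPKM in knockout replicates 1, 2 and 3. Its genotypes overlapped through replicate 1, and its log2 fold change was 1.82 (Benjamini-Hochberg adjusted p = 0.342 in limma) and 2.57 in replicates 2 and 3 alone (adjusted p = 7.4e-05). *Pdgfra* and *Pi16* had log2 fold changes of −1.66 and −1.32, *Clec3b* one of 0.05, and *Dpep1* was under the filter. In replicates 2 and 3 alone, where limma called 17.2% of all genes lower and 11.9% higher, *Dpt*, *Cd34*, *Pdgfra*, *Pi16* and *Ly6a* were lower, by −5.38, −2.26, −2.21, −1.62 and −1.37 (Benjamini-Hochberg adjusted p from 1.08e-05 to 0.0127). The summed level of the 8 genes was 287, 609 and 529 FPKM in the controls and 56.0, 190 and 168 FPKM in knockout replicates 1, 2 and 3. Without *Ly6a*, the highest on average, the sums were 235, 231 and 201 FPKM and 19.7, 48.4 and 38.0 FPKM. Both sums were lower in every knockout, as *Igf2* was. The same held for the sum of the 7 smooth muscle genes, for that of the proliferation genes given below, and for 15% of all genes tested. The methods describe removal of the adventitia before the cells were isolated and a smooth muscle marker check of each batch; the part of these genes in the differences of *Igf2*, *Dlk1* and *Ndn* was not tested. Of 7 endothelial genes with values, *Cdh5*, *Tek* and *Erg* had means under 0.1 FPKM, the most abundant was *Kdr*, and the sum was 1.53 to 2.04 FPKM in the controls and 1.90 to 5.40 FPKM in the knockouts. *Kdr* alone made the knockout sum higher, with a log2 fold change of 1.16 (Benjamini-Hochberg adjusted p = 0.186 in limma). *Pecam1*, under the filter, was lower without overlap, with 0.56, 0.88 and 0.92 FPKM in control replicates 1, 2 and 3 and 0.12, 0.18 and 0 FPKM in knockout replicates 1, 2 and 3. Among 8 macrophage and leukocyte genes, *Ptprc*, *Adgre1*, *Fcgr1* and *Itgam* were at or near 0, and the sum, led by *Cd14*, was 26.7 to 42.6 FPKM and 18.3 to 40.9 FPKM. Among 5 adipocyte genes with values, *Adipoq*, *Plin1* and *Cidec* were at or near 0, and *Fabp4* reached 118.57 FPKM in knockout replicate 1 beside 3.12 to 6.19 FPKM in the other libraries. *Pparg* was lower in every knockout, with 4.50, 8.0 and 6.87 FPKM in control replicates 1, 2 and 3 and 3.84, 2.11 and 1.88 FPKM in knockout replicates 1, 2 and 3, and a log2 fold change of −1.06 (Benjamini-Hochberg adjusted p = 0.107 in limma). None of the endothelial, leukocyte or adipocyte genes was called in limma with or without the block (1, 4 and 2 were tested), and 1 of each list, *Kdr*, *Csf1r* and *Pparg*, had an unadjusted p under 0.05 (11.2% of all genes lower and 9.16% higher). In replicates 2 and 3 alone *Kdr* and *Csf1r* were called higher (Benjamini-Hochberg adjusted p = 0.0026 and 0.0192 in limma) and *Lyz2* and *Pparg* lower (0.00294 and 0.000344). All 8 proliferation genes were tested and had log2 fold changes between −0.80 and −0.31. None was called in limma without the block, and 4 of 8 were lower at an unadjusted p under 0.05, beside 11.2% of all genes. *Cdk1* was lower with the replicate block (Benjamini-Hochberg adjusted p = 0.0488 in limma), beside 5.72% of all genes. It was not called with the block and no filter (0.0942). The summed level of proliferation genes, led by *Pcna*, was 251, 197 and 205 FPKM in the controls and 164, 174 and 112 FPKM in the knockouts, and its part in the changes of the members was not tested.

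As a description of its pattern over the 6 libraries, *Igf2*, which had both the highest mean FPKM and the largest absolute log2 fold change among the members, was compared with 11165 other genes. The genes most like it by Pearson correlation of log2(FPKM + 1) were *Eef1d* (r = 0.9952), *Sorbs2* (r = 0.9945) and *Slc25a24* (r = 0.9931). *Sorbs2*, which encodes an adaptor protein of the cytoskeleton, had 11.92, 12.82 and 12.63 FPKM in the controls and 0.88, 1.25 and 2.0 FPKM in knockout replicates 1, 2 and 3. Like *Igf2* it was lowest in knockout replicate 1 and highest among the knockouts in replicate 3, and its log2 fold change was −2.53. *Eef1d* and *Slc25a24* followed the same order of genotypes with smaller log2 fold changes of −0.54 and −0.45.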

How the data were processed

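Paired-end poly-A libraries were processed by the authors with SOAPnuke, HISAT, Bowtie2 and RSEM, and the deposited FPKM were rounded to 2 decimals for 18112 genes; tool versions and genome build are not given in the sources used here. Genotype and replicate number came from the labels. Values were taken to log2(FPKM + 1), the 12565 genes whose mean reached 0.5 FPKM were kept, and limma 3.58.1 (R 4.3.3) compared the genotypes (trend and robust settings, Benjamini-Hochberg adjustment over all genes tested, no block). The test was checked on simulated data. Deviations from the group means correlated at 0.615, 0.46 and 0.527 between same-numbered samples, with the replicate numbers taken from the labels, so a fit with the replicate block was made as well. Differently numbered samples were similar outside replicate 1. Control replicate 3 with knockout replicate 2 gave 0.439, and control replicate 2 with knockout replicate 3 gave 0.461. The correlations thus do not tie replicates 2 and 3 to their own numbers. The replicate block mainly separates replicate 1 from the others. Fragment numbers were estimated from the steps of low FPKM, 70.1% to 73.4% of which lay within 0.15 of a whole fragment (30% by chance), and cover counting error only. Alternatives were a pseudocount of 0.1, no filter, the replicate block, a block for replicate 1, replicates 2 and 3 alone, leaving out each library, TPM, quantile normalization, a fold change above 2 with an adjusted p under 0.01, and, chosen after the data were seen, no filter with the replicate block. Positions came from GENCODE M21 (GRCm38), matched by RefSeq transcript. The members and gene lists were chosen with earlier results of these data known. Named genes are all members, *Smyd2*, genes of the members' domains, listed genes called in either limma fit, genes of the marker lists and the 3 genes most like *Igf2*; *Uhrf1*, *Zfp57*, *Dnmt1*, *Igf2r*, *Gnas*, *Igf1r*, *Insr*, *Igfbp2*, *Igfbp3*, *Igfbp6* and *Igfbp7* were added from the lists for their role or value, and *Trim28*, *Smchd1*, *Kdm1b* and *Dnmt3a* for their calls in replicates 2 and 3 alone. Python 3.11.15, numpy 2.4.6, pandas 2.3.3, scipy 1.17.1 and matplotlib 3.10.9 were used.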

Additional observations from a re-analysis of the deposited data

How the results depend on the processing

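The replicates are few and may not be separate animals, FPKM cannot separate alleles, strands or cell types, and replicate 1 differed from the others in both genotypes; the cause was not tested. Of the values recomputed under alternatives, 187 were labelled as the same, 54 as moved, 9 as stronger and 6 as weaker. Some labels of sameness were fixed in advance, because dropping the filter or adding a block cannot move a log2 fold change here. That holds for the median of the tested members and for the untested members, so the tally does not measure robustness. Fold changes and differences labelled as the same stayed on their side of the threshold or within the spread between replicates. Counts labelled as the same could still change. Genes lower went from 152 to 108 without the filter, and members higher from 2 to 3 with the replicate block, where *Grb10* crossed the threshold. No called value changed sign. Uncalled values near 0 did. The log2 difference of *Cdkn1c* went from 0.16 to −0.10 in replicates 2 and 3 alone and −0.14 without Smyd2 SMC-/- replicate 1. That of *Phlda2* went from −0.04 to 0.02 in replicates 2 and 3 alone, and that of *Plagl1* from −0.01 to 0.01 without Smyd2 fl/fl replicate 1. The median of the tested members went from 0.10 to between −0.07 and 0.44 without single libraries. Genes lower and higher at a limma adjusted p under 0.05 numbered 152 and 154, and 719 and 593 with the replicate block. A block for replicate 1 gave 1398 and 1152, and replicates 2 and 3 alone gave 2156 and 1494. Rescaling to TPM gave 99 and 247, shifted the median log2 fold change by 0.113 and took the share of calls that were higher from 50.3% to 71.4%. Asking for an adjusted p under 0.01 and a fold change over 2 left 26 and 27, and leaving out single libraries gave 16 to 313 and 16 to 373.

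The counts in this paragraph are to be read beside those of all 12565 genes tested. Of these, 1.21% were lower and 1.23% higher without a block, and 5.72% and 4.72% with the replicate block. The block for replicate 1 called 1398 and 1152 genes, and replicates 2 and 3 alone called 17.2% and 11.9%. Members lower numbered 1, or 2 with the replicate block, with the block for replicate 1 and in replicates 2 and 3 alone, and 0 to 1 when single libraries were left out (0 without Smyd2 fl/fl replicate 2). Members higher numbered 2, or 3 in the same 3 settings, 1 at the stricter thresholds, and 1 to 2 when single libraries were left out (2 only without Smyd2 SMC-/- replicate 1). Other imprinted genes lower numbered 0, but 1 with a pseudocount of 0.1, 2 with the replicate block, 4 with the block for replicate 1, 4 in replicates 2 and 3 alone, and 0 to 1 without single libraries. Those higher numbered 0, but 1 without the filter and 5 with the block for replicate 1 and in replicates 2 and 3 alone. The 1 without the filter is *Begain*, which entered that fit only through the knockouts. The 5 in replicates 2 and 3 alone include *Peg12*, which passed the filter only through the knockouts. IGF axis genes lower numbered 0, but 3 (*Igf2bp1* included) with the replicate block, with the block for replicate 1 and in replicates 2 and 3 alone, 1 after quantile normalization, and 0 to 2 without single libraries; those higher numbered 1, but 4, 5 and 6 in the first 3 of these settings, 2 after TPM, and 0 to 4 without single libraries.

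With the replicate block, the block for replicate 1, and replicates 2 and 3 alone, log2 fold changes were −1.48, −1.48 and −1.35 for *Smyd2* (limma adjusted p = 0.0189, 0.00328 and 0.00126), −1.63, −1.63 and −1.53 for *Peg3* (0.00932, 0.00105 and 0.000256) and 0.97, 0.97 and 0.89 for *Grb10* (0.0258, 0.00476 and 0.00248). The replicate block changed no other call of a member. Leaving out single libraries moved *Igf2* between −4.0 and −3.34 (limma adjusted p = 0.00648 to 0.0541), with −3.52 without Smyd2 fl/fl replicate 2, and *Dlk1* between 2.52 and 3.23 (0.00249 to 0.108).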
